A study of Mus musculus with 6 samples.

Results

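The MYC, MAX and MXD network is a family of transcription factors with basic helix-loop-helix leucine zipper domains, and 10 of its genes were examined: MYC, MYCN, MAX, MXD1, MXD3, MXD4, MXI1, MNT, MLX and MLXIP. They were chosen by name, as members of the network, and not by a threshold on their values. Each gene was represented by the row that carried its symbol alone and had the highest mean signal, so that 10 of the 18630 genes with a row of 1 symbol were described, out of 23 rows that carried a member symbol alone and 21448 rows in all. MAX is the common partner: MYC and MYCN bind it to activate genes for growth, whereas MXD1, MXD3, MXD4, MXI1 and MNT bind it to repress genes through SIN3 and histone deacetylases. MLX is a second hub, which pairs with MLXIP (MondoA), a factor that responds to glucose phosphates, and also with some MXD proteins and MNT. All of these dimers recognise E-box sequences, and MYC is an oncogene often raised in lung and other carcinomas.

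The material came from Lewis lung carcinoma (LLC), a mouse lung tumour line, of which 1000000 cells in Matrigel were placed under the skin of mice, per the labels. The 3 control libraries came from mice described as without antibody against PD-1, although the treatment protocol names an IgG2a isotype antibody, and the 3 anti-PD-1 libraries from mice given 250 µg of an antibody against this inhibitory T cell receptor. The material is tumour tissue in the labels but LLC cells collected 7 days after treatment in the design text, and mouse strain and age are not given in the sources used here. Whether replicates are separate animals is not stated either, and the spread that p-values rest on may thus be technical.

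Some properties of the deposited table limit every value below. An array and a build of the mouse are named in its header, yet 19850 rows carry human transcript accessions, 0 carry mouse ones, and 1299 rows lie on chromosomes 20, 21 or 22, which the mouse lacks. Symbols are therefore those of the file, and the species of the RNA behind each row is unsettled. For 10 of 10 members, each group average in the authors' deposited table matched, within 0.05, a 1-step Tukey biweight average of the signals under the other group's letter, and for 0 members that of its own letter. This average gives little weight to a library far from the median, so it can differ from the plain means used here. Over all rows 99.6% matched the other letter and 11.26% their own, and a row can match both. Directions here follow the sample labels and oppose that table, where MXI1, for example, is 4.0-fold higher in C by those averages. If the letters of its averages are right, each rise below is a fall. The table has 111 rows in which averages or SDs disagree with the signals whichever way the letters are read, and 0 of them are members.

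Many markers of other cell types were dim, by a mean log2 signal below 5.08, the 25th percentile of all rows. That held for 6 of 7 T cell markers, 3 of 7 macrophage, 3 of 6 endothelial and 2 of 5 fibroblast markers and for 2 of 5 red blood cell markers, whereas 0 of 5 epithelial markers were dim. Their mean signal over the list was 4.22 to 4.45 in control and 4.22 to 4.26 in anti-PD-1 libraries for T cells. It was 7.01 to 7.21 and 6.93 to 7.07 for macrophages, 4.95 to 5.20 and 5.21 to 5.26 for endothelium, and 6.09 to 6.24 and 6.34 to 6.40 for fibroblasts. Red blood cell markers had 5.37 to 5.83 and 5.40 to 5.87, and epithelial markers 15.04 to 15.09 and 15.03 to 15.05. Among these lists CD14 rose while CD68 and CD4 fell, and 0 endothelial, 0 fibroblast and 0 red blood cell markers passed; of the epithelial markers KRT8 rose and EPCAM fell. Their part in the results was not tested. In such bulk samples fewer cells of a type and less RNA per cell cannot be told apart.

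Differences are anti-PD-1 minus control on the log2 scale, from limma over all rows, and rose or fell is written where the Benjamini-Hochberg adjusted p was under 0.05. Of the 10 members 3 rose (MXI1, MXD1 and MNT) and 1 fell (MLX). This is 40.0% of them, beside 29.8% of all rows past the same threshold (14.7% higher and 15.1% lower). Without each library in turn 2 to 3 members passed, beside 22.9% to 25.4% of all rows. The calls of MXD1 and MNT were each lost without most single libraries. Median centring gave 2 members that rose and 2 that fell, beside 30.1% of all rows past the threshold. The false discovery rate in the authors' deposited table was under 0.05 for 4 members, beside 30.0% of all rows. A difference of at least 1.5-fold past the threshold was found in 2 members, beside 17.3% of all rows. The groups did not overlap for 8 members, 6 higher and 2 lower in anti-PD-1 libraries, beside 43.5% of all rows without overlap. An exact 2-sided permutation test of 3 against 3 libraries cannot go below 0.1 and was not used for single genes.

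**Figure D1:**
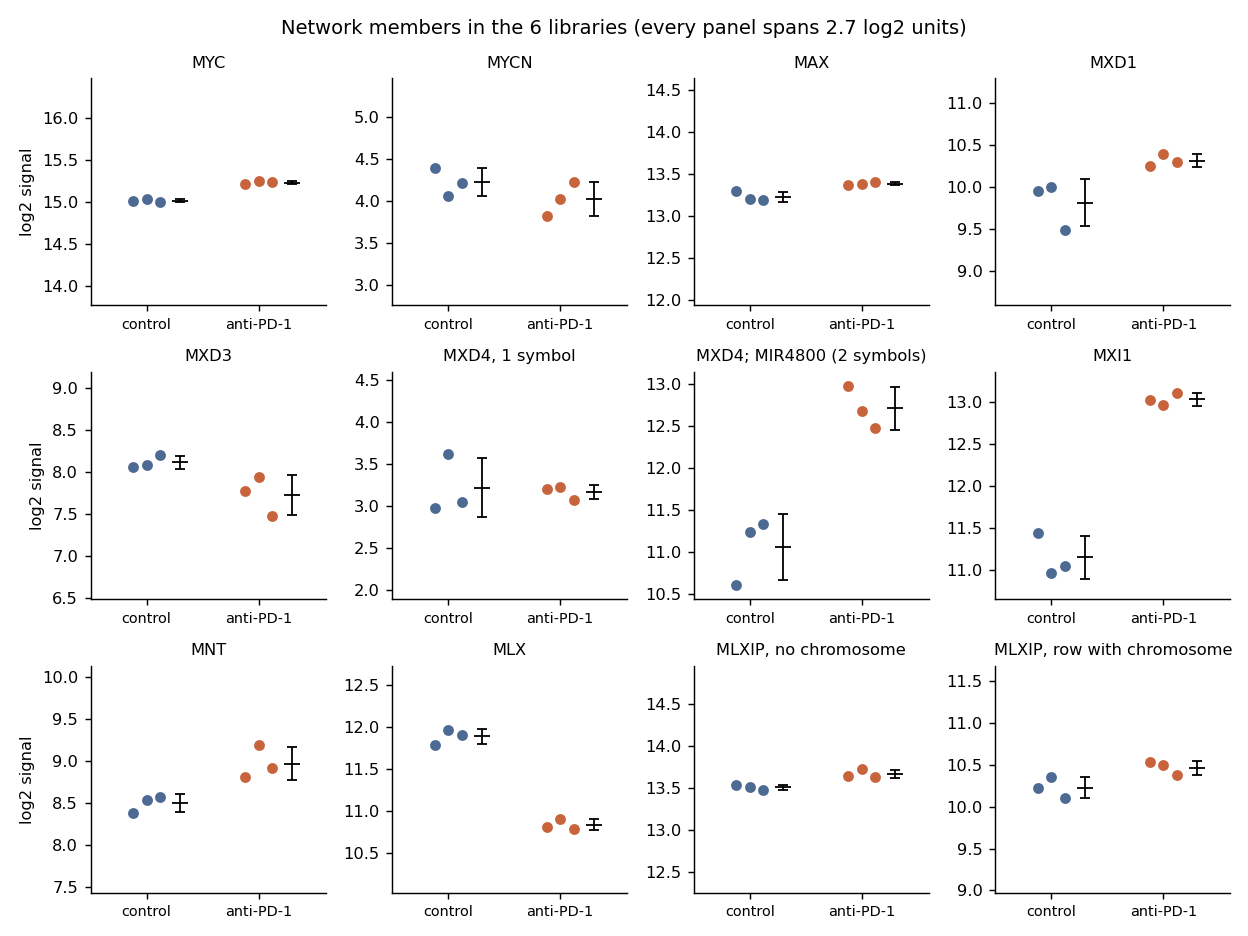
Deposited log2 signals of each network member in the 3 control (blue) and 3 anti-PD-1 (orange) libraries, 1 panel per row, with the mean and SD of each group as a black mark and bar; all panels span the same number of log2 units. MXI1 and the 2-symbol row of MXD4 sit far higher in the anti-PD-1 libraries and MLX lower, whereas the groups of MYC and MAX lie close together.

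MYC, the activator that gives the network its name, differed by a small amount between the groups. Its values were 15.01, 15.03 and 14.99 in control replicates 1 to 3 and 15.21, 15.24 and 15.23 in anti-PD-1 replicates 1 to 3. All anti-PD-1 libraries were above all control libraries, with a gap of 0.18 between the nearest values. The difference of 0.22 ± 0.08 (SE), a ratio of 1.16, did not pass (adjusted p = 0.0788). The spread between libraries was small: the pooled within-group SD of MYC was smaller than that of nearly all rows of like brightness, since 1.12% of the 358 rows within 0.5 of its mean signal had a smaller one, and their median was 0.0555. MYC did pass in 2 alternatives, at the same difference of 0.22. With a robust variance prior that follows the signal level the SE was 0.04 and the adjusted p was 0.000491. The main setting used the same prior at all signal levels. With rows below the 25th percentile left out, which also lowers the number of tests from 21448 to 16092, the adjusted p was 0.0402. The false discovery rate for MYC in the authors' deposited table is 0.0765. The file places MYC on chromosome 8 from 127735434 to 127741434, with the build of its positions unsettled.

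MYCN, the paralogue best known from neuroblastoma, was dim, with 4.39, 4.06 and 4.21 in control and 3.82, 4.02 and 4.22 in anti-PD-1 libraries. The groups overlapped, the difference was -0.20 ± 0.14 (adjusted p = 0.341), and the authors' deposited table flags the row as not expressed in either group. MAX, the obligate partner of both activators, had 13.30, 13.20 and 13.19 in control and 13.37, 13.38 and 13.41 in anti-PD-1 libraries. The groups stood apart by 0.07, and the difference of 0.16 ± 0.08 did not pass (adjusted p = 0.21).

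MXI1, an MXD-type repressor that competes with MYC for MAX, had the largest difference of the 10 members. Its signals were 11.44, 10.96 and 11.05 in control and 13.02, 12.96 and 13.11 in anti-PD-1 libraries. The lowest anti-PD-1 value lay 1.52 above the highest control value, and control replicate 1 was the highest of its group. MXI1 rose by 1.88 ± 0.14, a ratio of 3.68 (adjusted p = 0.000119), and the call held without any 1 library, with differences from 1.78 to 2.02. The file places it on chromosome 10 from 110207605 to 110287365.

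MXD1, a repressor linked to differentiation, had 9.96, 10.00 and 9.49 in control and 10.25, 10.40 and 10.30 in anti-PD-1 libraries. The groups did not overlap, and control replicate 3 lay below the others. The rise of 0.50 ± 0.15 passed narrowly (adjusted p = 0.0449). It no longer passed without control replicate 1 or 3 or without any 1 of the anti-PD-1 replicates (adjusted p from 0.0579 to 0.127), nor after median centring (0.0588). A further row named MXD1, non-coding and on the opposite strand inside the span of the gene, was dim and fell, with 4.41, 4.30 and 4.71 in control and 4.01, 3.96 and 3.88 in anti-PD-1 libraries (-0.52 ± 0.12, adjusted p = 0.0186).

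MNT, the broadly expressed antagonist of MYC that pairs with MAX and MLX, had 8.37, 8.53 and 8.57 in control and 8.80, 9.18 and 8.91 in anti-PD-1 libraries. Every anti-PD-1 library was above every control library, by at least 0.23, and anti-PD-1 replicate 2 was the highest. The rise was 0.47 ± 0.12 (adjusted p = 0.0274). Without anti-PD-1 replicate 1 it still passed (adjusted p = 0.0292), but not without any of the other 5 libraries (adjusted p from 0.0521 to 0.0813), where the difference stayed between 0.36 and 0.51.

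MXD3, the member of the repressor family tied to the S phase of proliferating cells, moved in the other direction without passing. Its signals were 8.06, 8.08 and 8.20 in control and 7.77, 7.94 and 7.47 in anti-PD-1 libraries. The anti-PD-1 values were all lower, by 0.12 at the nearest, and varied more than the control values. The difference was -0.39 ± 0.13 (adjusted p = 0.0717), and it passed after quantile normalization (0.0496), after median centring (0.047), with dim rows left out (0.0479) and without anti-PD-1 replicate 2 (0.0427).

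MXD4, a further repressor of the MXD family, cannot be read from its single-symbol row. That row is non-coding, spans 93 bases and was dim, with 2.98, 3.62 and 3.05 in control and 3.20, 3.23 and 3.07 in anti-PD-1 libraries. The groups overlapped (-0.05 ± 0.18, adjusted p = 0.87). The row that covers the gene, on chromosome 4 from 2247432 to 2262294, carries the symbols MXD4 and MIR4800 and was considered after its values were seen. Its signals were 10.60, 11.23 and 11.33 in control and 12.97, 12.67 and 12.47 in anti-PD-1 libraries. The groups stood 1.14 apart, with control replicate 1 lowest and anti-PD-1 replicate 1 highest. That row rose by 1.65 ± 0.22, a ratio of 3.14 (adjusted p = 0.00157), but a row with several symbols does not tell which of its genes was measured.

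**Figure D2:**
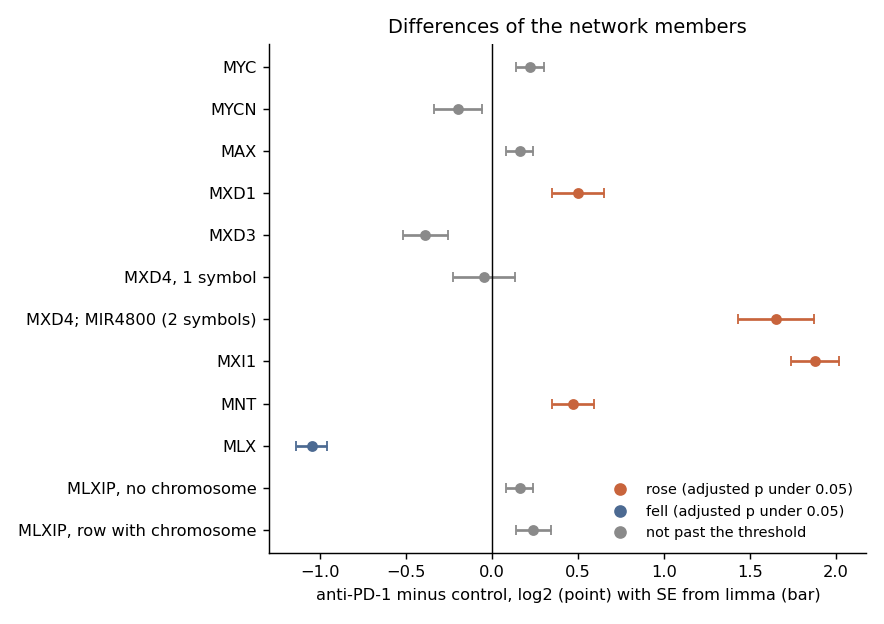
Difference between anti-PD-1 and control libraries for each network member on the log2 scale (point) with its SE from limma (bar), coloured by whether the adjusted p was under 0.05. MXI1 at 1.88 and the 2-symbol row of MXD4 at 1.65 lie farthest right and MLX at -1.05 farthest left.

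MLX, the hub of the glucose-responsive arm, was the member that fell. It had 11.79, 11.97 and 11.91 in control and 10.81, 10.91 and 10.79 in anti-PD-1 libraries. The groups stood 0.88 apart and each was tight. The difference was -1.05 ± 0.09, so that control exceeded anti-PD-1 by a ratio of 2.08 (adjusted p = 0.000218), and it passed without any 1 library, between -1.10 and -1.01. The file places MLX on chromosome 17 from 42567060 to 42573239.

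MLXIP, the MondoA partner of MLX, was named in 13 rows, of which 11 have no chromosome. The file has 555 such rows under 97 symbols, so the symbol does not settle which gene such a row measured. The brightest row, which has no chromosome, held 13.54, 13.51 and 13.48 in control and 13.65, 13.73 and 13.63 in anti-PD-1 libraries (0.16 ± 0.08, adjusted p = 0.197). The brightest row with a chromosome, on chromosome 12 from 122078722 to 122147347, held 10.22, 10.35 and 10.10 in control and 10.53, 10.49 and 10.37 in anti-PD-1 libraries. There the groups were separated by 0.02, and the difference of 0.24 ± 0.10 did not pass either (adjusted p = 0.127). Over the 11 rows without a chromosome, differences ran from -0.30 to 0.48, with 2 rising and 0 falling. MXD4 was also taken by its 2-symbol row and MLXIP by this row with a chromosome, a choice made after the values were seen. Then 4 members rose and 1 fell, which is 50.0% of them, beside 29.8% of all rows past the threshold.

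How far a difference could pass depended on the brightness of the row. The median pooled SD was 0.24 for rows with a mean signal of 4 to 5 and 0.0523 for rows of 15 to 16. MYC lay below the 10th to 90th percentile range of its level, while the pooled SD of MXI1 (0.188) exceeded that of 96.8% of rows within 0.5 of its mean, and that of the 2-symbol MXD4 row (0.332) exceeded 99.7%. MXD1 (0.208) was also more variable than most rows of its level (86.6%), while MNT and MXD3 were near the middle (42.8% and 42.4%).

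**Figure D3:**
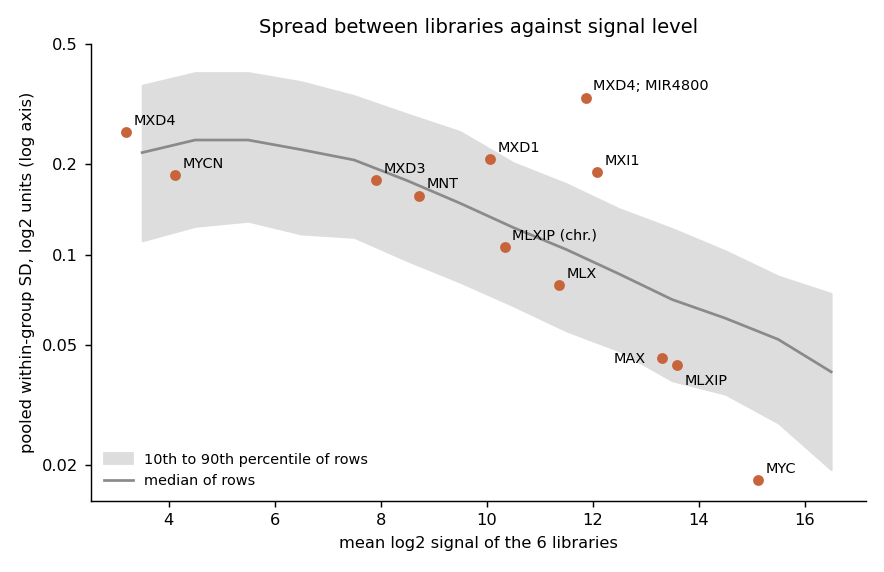
Pooled within-group SD of each network member (orange points, log axis) against its mean log2 signal over the 6 libraries, with the median (line) and the 10th to 90th percentile range (band) of all rows in bins of 1 log2 unit. MYC lies under the band, and MXI1 and the 2-symbol row of MXD4 lie above it.

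The E-box that these dimers recognise also occurs in promoters of the network's own genes. Mouse promoters from RefSeq (GRCm38.p6, 250 bases before and 50 after an annotated start) were matched to the members by symbol with case ignored, which assumes the mouse counterpart of each file symbol. Of the members 9 matched, with 11 promoters, while MYC had no promoter in this set. CACGTG, which reads the same on both strands, was present in 4 of the 11 (36.4%), beside 7.15% of all 32851 promoters of this length. These 4 belong to Max, Mnt, Mlx and Mxd4, while none of the 3 Mxi1 promoters holds these letters. Promoters 2 and 3 of Mxi1 overlap, so the 11 windows are not all separate. The sequences for both hubs and for MNT are shown with the motif in capitals, as 3 of the 4 promoters that hold it. The Mxd4 promoter, where the motif begins 219 bases before the start, is not shown. The promoters of Mxd1, Mxd3, Mycn and Mlxip do not hold it. The motif begins 3 bases before the start in Max (chr12:76962199-76962498, minus strand), 123 bases before it in Mnt (chr11:74830674-74830973, plus strand) and 40 bases before it in Mlx (chr11:101087040-101087339, plus strand).
Max: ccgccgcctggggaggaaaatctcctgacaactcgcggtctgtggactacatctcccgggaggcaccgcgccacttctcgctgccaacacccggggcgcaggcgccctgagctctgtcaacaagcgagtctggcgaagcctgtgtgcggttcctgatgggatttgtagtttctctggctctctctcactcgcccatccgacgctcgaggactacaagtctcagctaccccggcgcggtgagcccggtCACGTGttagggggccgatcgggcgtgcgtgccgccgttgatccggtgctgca
Mnt: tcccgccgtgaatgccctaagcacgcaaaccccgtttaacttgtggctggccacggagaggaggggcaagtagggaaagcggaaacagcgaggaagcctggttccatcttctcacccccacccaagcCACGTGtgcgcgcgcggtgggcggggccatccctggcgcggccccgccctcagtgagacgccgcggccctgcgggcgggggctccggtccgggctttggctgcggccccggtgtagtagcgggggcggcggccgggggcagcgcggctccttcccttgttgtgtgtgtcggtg
Mlx: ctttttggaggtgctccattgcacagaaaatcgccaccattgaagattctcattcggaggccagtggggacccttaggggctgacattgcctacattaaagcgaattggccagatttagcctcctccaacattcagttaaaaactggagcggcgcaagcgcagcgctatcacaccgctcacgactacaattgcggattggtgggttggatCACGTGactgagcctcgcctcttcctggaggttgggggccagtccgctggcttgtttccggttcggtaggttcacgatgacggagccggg
A match is a description of these windows. Of the 3 genes shown, MNT rose, MLX fell and MAX did not pass.

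Genes around the network were then counted in 8 lists, each gene by its brightest row with 1 symbol and a chromosome. Ribosome biogenesis genes, a classical group of MYC-activated genes in the nucleolus, were lower: 13 of 22 measured genes fell and 0 rose (15.1% of all rows fell), and all 22 differences were below 0. Their median was -0.40, beside 0.01 over all rows. Of these 22 genes 21 lay above the median signal of all rows, where the spread was smaller, so the share over all rows is not one of like brightness. With dim rows left out 15 fell, and 42.8% of the rows left passed in either direction. FBL, the methyltransferase of box C/D nucleolar particles, had 13.09, 13.20 and 13.17 in control and 12.16, 12.12 and 12.30 in anti-PD-1 libraries. FBL fell by 0.96 on the log2 scale (SE 0.09, adjusted p = 0.000326), and RRP9, a protein of the U3 particle, by 0.86 (adjusted p = 0.000839). NPM1 and NCL, abundant nucleolar proteins, each stood at -0.32 and passed, whereas the RNA polymerase I factors POLR1A (-0.04), UBTF (-0.03) and RRN3 (-0.04) did not.

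Growth and metabolism genes activated by MYC went mostly the same way, with 14 of 26 falling and 4 rising (median -0.32). Of all rows 15.1% fell and 14.7% rose, and 24 of the 26 genes lay above the median signal of all rows. CDC25A, a phosphatase that activates cyclin-dependent kinases, had 9.65, 9.43 and 9.40 in control and 7.41, 7.50 and 7.90 in anti-PD-1 libraries. It fell by 1.89 (adjusted p = 0.000156), and HSPE1, the mitochondrial co-chaperonin, by 0.79 (adjusted p = 0.000537). Against this, SLC3A2, the heavy chain of amino acid transporters, rose by 0.60 (adjusted p = 0.00143). LDHA stood at -0.16, SLC7A5 at 0.12 and TERT at -0.22, and none of these passed.

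Genes described as repressed by MYC were higher: 7 of 10 rose and 0 fell (14.7% of all rows rose), with a median of 0.57. Of the 10 genes 7 lay above the median signal of all rows. THBS1, the matrix protein thrombospondin, had 14.97, 14.95 and 14.87 in control and 16.50, 16.50 and 16.52 in anti-PD-1 libraries. THBS1 rose by 1.58 ± 0.08 (adjusted p = 2.69e-05). CDKN2B, the CDK4 and CDK6 inhibitor p15, rose by 1.19 ± 0.09 from 7.42, 7.36 and 7.40 in control to 8.68, 8.52 and 8.56 in anti-PD-1 libraries (adjusted p = 0.000103). CEBPA (0.05), CDKN1C (0.04) and GAS1 (0.03) did not pass, and CEBPA and GAS1 were dim.

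**Figure D4:**
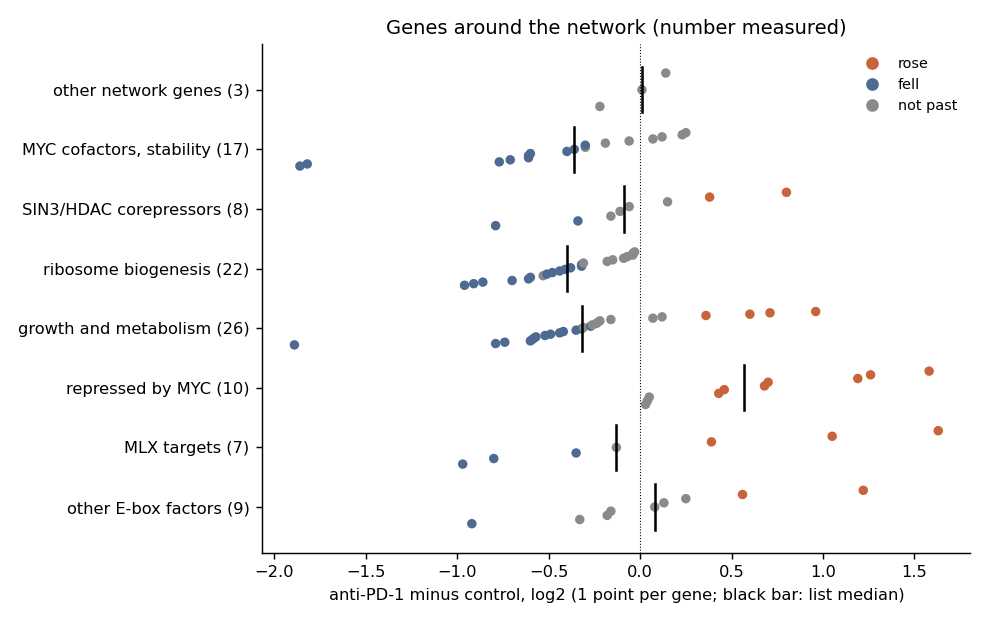
Difference between anti-PD-1 and control libraries for every measured gene of the 8 lists on the log2 scale, 1 point per gene, coloured by whether it rose or fell past the adjusted threshold, with the list median as a black bar. Ribosome biogenesis genes lie below 0 throughout and genes repressed by MYC above 0, while targets of MLX are split.

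Cofactors of MYC and proteins that set its stability included 10 of 17 genes that fell and 0 that rose (median -0.36). Of all rows 15.1% fell and 14.7% rose, and 16 of the 17 genes lay above the median signal of all rows. KIAA1524 (CIP2A), an inhibitor of the phosphatase PP2A that stabilises MYC, had 13.02, 12.92 and 13.04 in control and 11.03, 11.18 and 11.19 in anti-PD-1 libraries. It fell by 1.86 (SE 0.09, adjusted p = 2.38e-05), and AURKA, a mitotic kinase that binds MYCN, also fell (-1.82, adjusted p = 3.51e-05). The ubiquitin ligase subunit FBXW7 (0.12), the ubiquitin ligase HUWE1 (0.23) and the deubiquitinase USP28 (0.25) did not pass. Of the 8 corepressor subunits that MXD proteins and MNT recruit, 2 rose and 2 fell (median -0.09), beside 14.7% and 15.1% of all rows. Of these subunits 7 lay above the median signal of all rows. HDAC1 fell by 0.79 (adjusted p = 0.000527) and SAP30 by 0.34 (adjusted p = 0.0319), while SIN3B rose by 0.80 (adjusted p = 0.00519) and NCOR1 by 0.38 (adjusted p = 0.0118).

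Targets of MLX with MLXIP or MLXIPL were split, with 3 of 7 rising and 3 falling, beside 14.7% and 15.1% of all rows. Of these 7 genes 6 lay above the median signal of all rows, so these shares are not of like brightness. ARRDC4, an arrestin-like protein induced by MondoA, had 8.75, 8.84 and 8.79 in control and 10.35, 10.45 and 10.46 in anti-PD-1 libraries. It rose by 1.63 ± 0.08 (adjusted p = 2.79e-05). TXNIP, the thioredoxin inhibitor and a standard readout of MondoA activity, had 13.78, 13.89 and 13.86 in control and 14.95, 14.94 and 14.78 in anti-PD-1 libraries. It rose by 1.05 ± 0.09 (adjusted p = 0.000223). The fatty acid elongase ELOVL6 (-0.97, adjusted p = 0.000242) and the early response factor KLF10 (-0.80, adjusted p = 0.00045) fell. MLX itself fell in the same libraries, as given above.

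The remaining network genes MLXIPL (-0.22, adjusted p = 0.223), MGA (0.14, adjusted p = 0.305) and MYCL (0.01, adjusted p = 0.986) did not pass, and their groups overlapped. Among 9 other E-box factors outside the network 2 rose and 1 fell. This is 33.3% of them, near the 29.8% of all rows past the threshold, though 7 of the 9 lay above the median signal of all rows. SREBF2, the regulator of sterol synthesis, rose by 1.22 (adjusted p = 0.000166) and TFE3, of the lysosomal MiT family, by 0.56 (adjusted p = 0.0231), while TFAP4, itself a MYC target, fell by 0.92 (adjusted p = 0.000486).

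The rows most like MXI1, by root mean square distance of mean-centred log2 signals over the 6 libraries among 17709 genes, were BCAT1 (distance 0.097, difference 1.99), CFLAR (0.098, 1.79), RBMS3 (0.098, 1.81), CACHD1 (0.114, 1.84) and FHDC1 (0.120, 1.97). Most like MYC were GPR6 (distance 0.018, difference 0.20), ATP6V1C1 (0.020, 0.23), RNF125 (0.021, 0.19), SLC35E1 (0.021, 0.23) and YTHDF3 (0.023, 0.22). None of these 5 passed the adjusted threshold, with adjusted p between 0.0715 and 0.117, and GPR6 was dim. Rows in both sets were picked for signals like those of MXI1 or MYC, so like differences and adjusted p follow by construction.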

How the data were processed

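Signals of 6 single-channel arrays were read from the deposited workbook. Per the file headers, the log2 signals were made by the authors at the gene level with SST-RMA, and the header names the array and its build; Transcriptome Analysis Console is named in the submitters' processing notes. The authors' deposited table also held log2 averages, group SDs and flags (other), a signed fold change (a score, per the file headers), a p-value and a false discovery rate. Of 22206 identifiers 21448 had values. The other 758, an unbroken run at the end, had none and were not used here. Library medians were 7.71 to 7.77, signals have 2 decimals, and the number of arrays limits the precision.

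Groups follow the sample labels. The test was that of limma 3.58.1 (R 4.3.3; lmFit, eBayes, 2-sided, no covariates), and p-values were adjusted by Benjamini-Hochberg over the 21448 rows, with calls at 0.05. On simulated data with 200 of 21448 rows changed, calls were made for 0 of 50 rows at 1.25-fold, 14 of 50 at 1.5-fold, 29 of 50 at 2-fold and 47 of 50 at 4-fold, and for 4 unchanged rows. Far more rows passed in the data, where the adjusted threshold was less strict. Members, lists and tests were chosen with earlier results of these data known. All members were named; from each list, up to 2 genes of smallest p in each direction, and some others chosen after their values were seen. Some list genes are counted but not reported here by name. KIAA1524 was matched to CIP2A by its older symbol. List genes without a row of 1 symbol and a chromosome (11 of 113) were not counted. The likeness search left out members, rows in conflict and genes on sex chromosomes. Libraries that share a replicate number did not deviate together from their group means (correlations 0.013, -0.024 and 0.013).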

Additional observations from a re-analysis of the deposited data

How the results depend on the processing

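The rise of MXI1 and the fall of MLX passed in all 15 alternatives that keep the sample labels and the row, with differences of 1.78 to 2.02 and -1.10 to -1.01. The deposited series values, among these alternatives, were identical to the signals used and could not give another result. The numbers of rows past the threshold stayed within 1.5 times 6391, between 4901 and 5452 without each library in turn and 5363 with a replicate block, which left 3 members past it and ended the call of MXD1 (adjusted p = 0.0555). Without each library in turn 2 to 3 members passed. With a limit of 1.5-fold 2 members passed, MXI1 and MLX, fewer by construction. The trended robust prior gave 6 of 10 members, beside 35.2% of all rows, and the omission of dim rows 6 of the 8 members left, beside 42.8% of the 16092 rows left, against 29.8% in the main setting; the cause was not tested. With the group names exchanged, as the letters of the averages in the authors' deposited table would have it, the differences became -1.88 for MXI1, -0.50 for MXD1, -0.47 for MNT and 1.05 for MLX, by construction. The further row named MXD1 had the opposite direction (-0.52); the cause was not tested. List counts from the identical series values were included in the next tally, and a count of 0 in both settings was taken as unchanged. Under the alternatives other than the exchange, 226 of 240 list counts stayed within 1.5 times their main value. The rest were counts of at most 4 genes in corepressors, growth genes, other E-box factors and cofactors. The dim rows of MYCN and MXD4 (1 symbol) allow no firm statement at this signal.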
